A study of Mus musculus with 24 samples.

Results

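The Kruppel-like factors (KLFs) are zinc finger transcription factors, and 10 of their genes were examined here by gene symbol: Klf2, Klf3, Klf4, Klf5, Klf6, Klf7, Klf10, Klf11, Klf13 and Klf15. All 10 were present in the table of normalized read counts, among 22314 named genes, and all 10 were among the 18364 genes with enough reads to be tested. RNA came from the hippocampus of mouse pups after hypoxia-ischemia on postnatal day 10, a model of perinatal brain injury in which the ipsilateral side is the injured one. The 24 libraries formed 12 groups of 2 animals: labelled Neil1-KO, Neil2-KO and wild type (WT), each on the ipsilateral and the contralateral side and at 6 h and 3 h. These genotypes were titled NEIL1-KO, NEIL2-KO and WT in the labels. Neil1 and Neil2 encode DNA glycosylases that remove oxidized bases. Every pup, WT included, had undergone the insult, so the injured side was set against the opposite side of the same brains and not against uninjured animals. The sources used here name no strain, kind of knockout allele or litter.

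KLFs bind GC-rich and CACCC elements through a conserved C-terminal zinc finger domain, and the family divides into activators and repressors. Klf2, Klf4 and Klf6 are immediate early genes in many cells. Klf2 and Klf4 are known above all from endothelium, where shear stress induces them through the kinase ERK5 and MEF2 factors and where they restrain inflammation and clotting. In cultured rodent neurons Klf4 and Klf9 are known to restrain axon growth, while Klf6 and Klf7 favour it.

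The labels were checked first. Neil2 stood at 1.09 ± 1.18 normalized counts in Neil2-KO and 20.7 ± 4.66 in WT (SD, n = 8 libraries each). Neil1 counts averaged more where the label was Neil1-KO, at 125.8 ± 23.3 against 97.99 ± 22.2 in WT (SD, n = 8 libraries each), so that label was not borne out by the counts and "labelled" is kept throughout. For Neil2-KO, title and genotype tag disagreed (the tag read NEIL1-KO), and the title was used. Xist was high in both libraries of 3 animals, all of them replicate 2 (labelled Neil1-KO at both times and Neil2-KO at 6 h), and in no WT animal. Labelled Neil1-KO ipsilateral 6 h replicate 2 was taken as a library that stood apart from the others. This was a choice made after seeing the data, and no measure of it is given here. None of 6 hippocampal markers was at 0 in any library, and their summed count was 7337 to 15995 ipsilaterally and 20341 to 27765 contralaterally. Depth was 17771293 to 29252067 reads per library, and the members had from 44 reads (Klf5 in one WT contralateral library) upwards.

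Klf2, Klf4 and Klf6 were the members that passed the test described below in every comparison of the sides, and their promoters are shown for that reason. RefSeq promoter entries (GRCm38.p6, an earlier build than that of the counts) were matched for 8 of the 10 members; Klf5 and Klf10 were not matched. The stretches printed end at the base before the annotated start and lie at chr8:72318812-72319061 on the plus strand (Klf2), chr4:55532476-55532725 on the minus strand (Klf4) and chr13:5861239-5861488 on the plus strand (Klf6). They read 5′ to 3′ along the gene, and capitals mark the TGACG core of the cAMP response element, the MEF2 site and the ACGTG core of the hypoxia response element, each on either strand.
Klf2: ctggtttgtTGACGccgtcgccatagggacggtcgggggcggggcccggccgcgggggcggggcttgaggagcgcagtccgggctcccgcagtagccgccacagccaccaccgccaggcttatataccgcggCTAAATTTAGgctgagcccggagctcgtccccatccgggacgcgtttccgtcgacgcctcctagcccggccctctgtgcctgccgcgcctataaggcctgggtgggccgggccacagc
Klf4: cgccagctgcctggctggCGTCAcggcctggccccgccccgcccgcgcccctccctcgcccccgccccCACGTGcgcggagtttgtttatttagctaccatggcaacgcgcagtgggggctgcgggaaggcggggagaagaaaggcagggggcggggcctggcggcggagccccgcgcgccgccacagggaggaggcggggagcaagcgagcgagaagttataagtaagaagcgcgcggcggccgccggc
Klf6: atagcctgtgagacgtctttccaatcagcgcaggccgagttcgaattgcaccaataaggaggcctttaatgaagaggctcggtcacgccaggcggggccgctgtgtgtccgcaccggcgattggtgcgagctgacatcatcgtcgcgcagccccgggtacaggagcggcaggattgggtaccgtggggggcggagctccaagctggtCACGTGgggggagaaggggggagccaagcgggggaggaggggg

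Positions are counted from the annotated start, with -1 the base before it. The Klf2 promoter held the MEF2 site at -118 and TGACG at -241. It was the only one of the 8 with a MEF2 match, which 3.19% of the 32851 RefSeq windows of 300 bases around a start held. Klf4 held TGACG on the other strand at -232. The palindrome CACGTG, which reads ACGTG on both strands, began at -182 in Klf4 and at -43 in Klf6. ACGTG was found in 4 of the 8 members (Klf4, Klf6, Klf11 and Klf15) and in 19.62% of all windows, and TGACG in 5 of the 8 and in 20.81%. The GC box GGGCGG, itself an element that KLF and Sp factors bind, was found in all 8 and in 35.66% of windows. CACCC was found in 5 of the 8 and in 57.52%. None of the 8 had a match to the AP-1 element TGANTCA (7.81% of windows), to the CArG box (1.63%) or to the NF-kB site (5.80%) in its window. The GC share of the printed stretches was 71.2% for Klf2, 74.0% for Klf4 and 64.8% for Klf6. These matches describe the sequence only.

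The first question was which family members differed between the injured and the opposite hippocampus. Values are the deposited normalized counts, and fold changes are on the scale of log2(count + 1), which understates those of low genes. A gene was called at a Benjamini-Hochberg adjusted p under 0.05 in limma over all genes tested. Where sides are said below not to overlap, the share of all genes that did likewise was not counted. At 6 h 7 members were called higher and 3 lower in labelled Neil1-KO, where 39.0% of all genes were called (17.6% higher, 21.4% lower). In Neil2-KO at 6 h 6 were higher and 0 lower (24.8% of all genes, 12.2% higher and 12.6% lower), and likewise 6 and 0 in WT at 6 h (20.6%, 10.4% higher and 10.3% lower). At 3 h 4 were higher and 2 lower in labelled Neil1-KO (17.0%, 7.20% higher and 9.85% lower), 5 higher and 2 lower in Neil2-KO (9.24%, 4.29% higher and 4.95% lower), and 3 higher and 0 lower in WT (4.29%, 2.49% higher and 1.79% lower). The median log2 fold change of the 10 members was 0.99, 1.35 and 1.02 in labelled Neil1-KO, Neil2-KO and WT at 6 h. It was 0.56, 0.77 and 0.45 at 3 h, while the median of all genes tested stayed between -0.01 and 0.02. The members were chosen with earlier results of these data known, so these counts and medians describe them and test nothing about the family. For 13 other Klf and Sp genes tested the list median was -0.13 to 0.20.

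**Figure D1:**
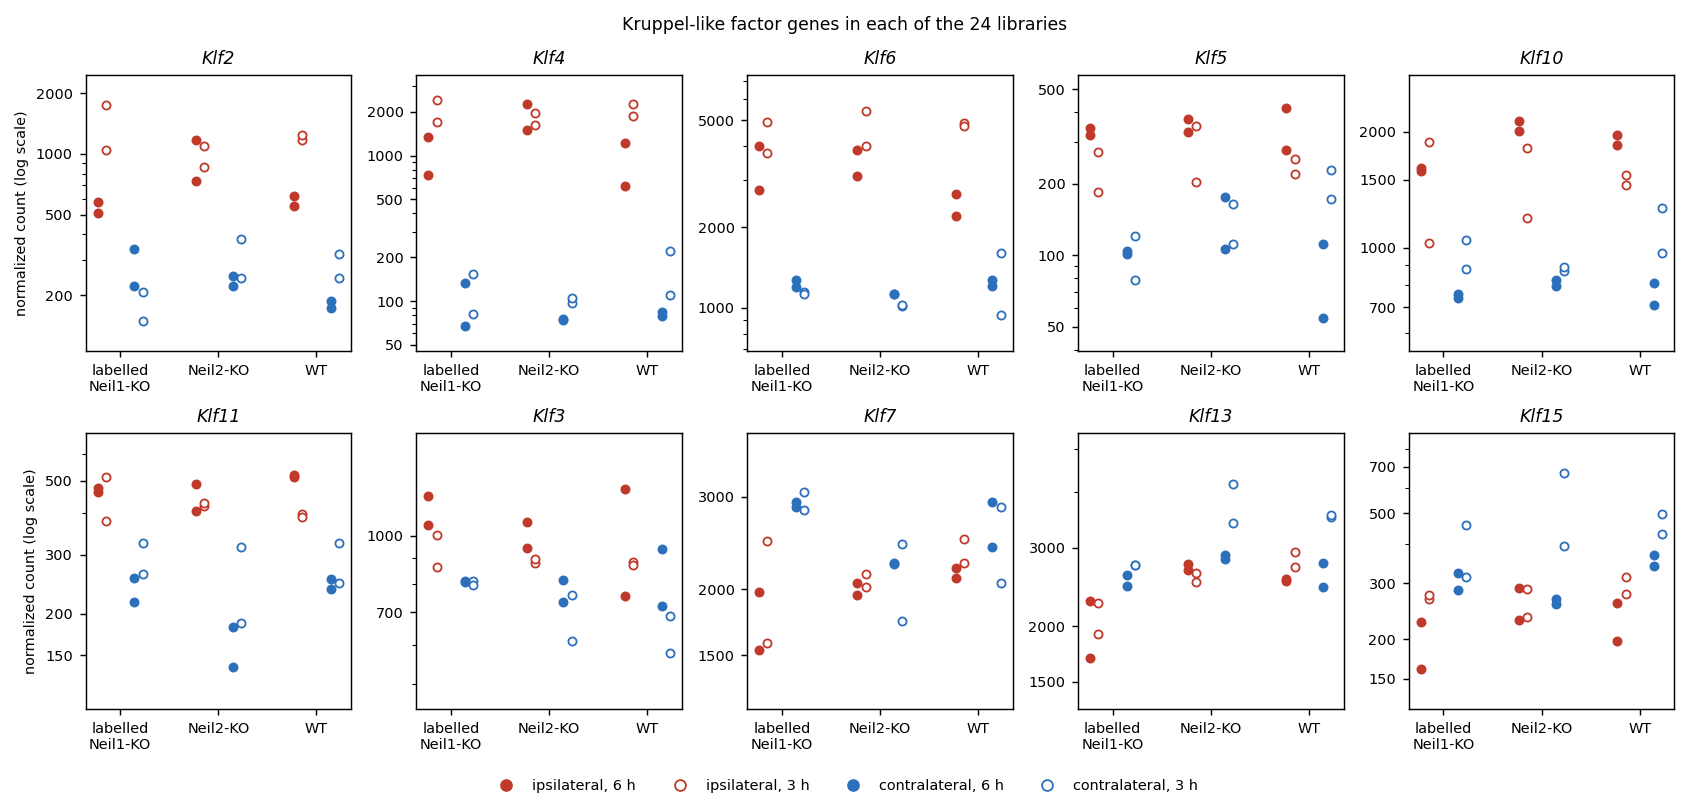
Normalized counts of the 10 genes (log axis) in each of the 24 libraries, by genotype; each point is a library, red ipsilateral and blue contralateral, filled at 6 h and open at 3 h. Klf2, Klf4, Klf6 and Klf11 show no overlap between the sides, with ipsilateral values of Klf4 from 616 to 2416 and contralateral values from 67.5 to 220.4. The share of all genes without such overlap was not counted.

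Klf4 had the largest difference of the family. At 6 h it stood at 739.8 and 1341 normalized counts ipsilaterally in labelled Neil1-KO (replicate 1, then 2), against 67.5 and 132.9 contralaterally. In Neil2-KO at 6 h it was 2259 and 1492, against 75.5 and 74.4. WT at 6 h had 1212 and 616, against 84.7 and 78.3. The lowest ipsilateral value at 6 h thus lay above every contralateral one. Its level at 3 h was 2416 and 1707 ipsilaterally in labelled Neil1-KO, against 152.7 and 81.9 contralaterally. Neil2-KO had 1957 and 1625 at 3 h, against 97.1 and 104.4. In WT at 3 h the values were 1887 and 2264, against 220.4 and 110. The sides did not overlap at 3 h either, and the 12 ipsilateral libraries (616 to 2416, median 1666) lay far above the 12 contralateral ones (67.5 to 220.4, median 90.9). The log2 fold change was 3.38 in labelled Neil1-KO, 4.60 in Neil2-KO and 3.39 in WT at 6 h, and 4.17, 4.13 and 3.72 at 3 h (SE 0.39 each, n = 2 libraries per side). These are 10.4-fold to 24.2-fold differences, with limma adjusted p-values from 6.6e-07 to 2.26e-05, and the call held without each library in turn.

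Klf2, the shear-stress factor of endothelium, was higher ipsilaterally in 12 of 12 animals. At 6 h labelled Neil1-KO had 513 and 581 normalized counts ipsilaterally, against 223 and 338 contralaterally. Neil2-KO at 6 h had 1175 and 733, against 249.7 and 223. In WT at 6 h the counts were 550.1 and 619.5, against 188 and 173. Labelled Neil1-KO thus held both the lowest ipsilateral and the highest contralateral value at 6 h. At 3 h the same genotype had the largest side difference, with 1748 and 1048 ipsilaterally, against 207 and 149.6 contralaterally. Neil2-KO at 3 h had 1089 and 860.3, against 244 and 380.5. WT at 3 h had 1172 and 1246, against 319 and 244. No ipsilateral library fell within the contralateral range of 149.6 to 380.5. The log2 fold changes were 0.99, 1.97 and 1.69 in labelled Neil1-KO, Neil2-KO and WT at 6 h, and 2.94, 1.67 and 2.11 at 3 h (SE 0.27 each), with limma adjusted p-values from 2.38e-06 to 0.00826. The smallest of these, that of labelled Neil1-KO at 6 h, was lost without contralateral replicate 1 (0.69, limma adjusted p = 0.127) or ipsilateral replicate 2 (0.90, limma adjusted p = 0.0645).

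Klf6, induced by injury in many tissues, was also higher ipsilaterally in 12 of 12 animals. At 6 h it had 2740 and 4015 normalized counts ipsilaterally in labelled Neil1-KO, against 1193 and 1270 contralaterally. Neil2-KO at 6 h had 3863 and 3099, against 1127 and 1121. WT at 6 h had 2668 and 2197, against 1203 and 1272. WT thus had the lowest ipsilateral values at 6 h. At 3 h the ipsilateral values were higher, 4953 and 3772 in labelled Neil1-KO, against 1142 and 1123 contralaterally. Neil2-KO at 3 h had 5437 and 4001, against 1015 and 1025. WT at 3 h had 4882 and 4775, against 1596 and 939. The lowest ipsilateral library (2197) was above the highest contralateral one (1596). The log2 fold changes were 1.43, 1.62 and 0.97 in labelled Neil1-KO, Neil2-KO and WT at 6 h, and 1.93, 2.19 and 1.98 at 3 h (SE 0.21 each). Limma adjusted p-values ran from 5.91e-06 to 0.00407, and the call held without each library in turn.

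**Figure D2:**
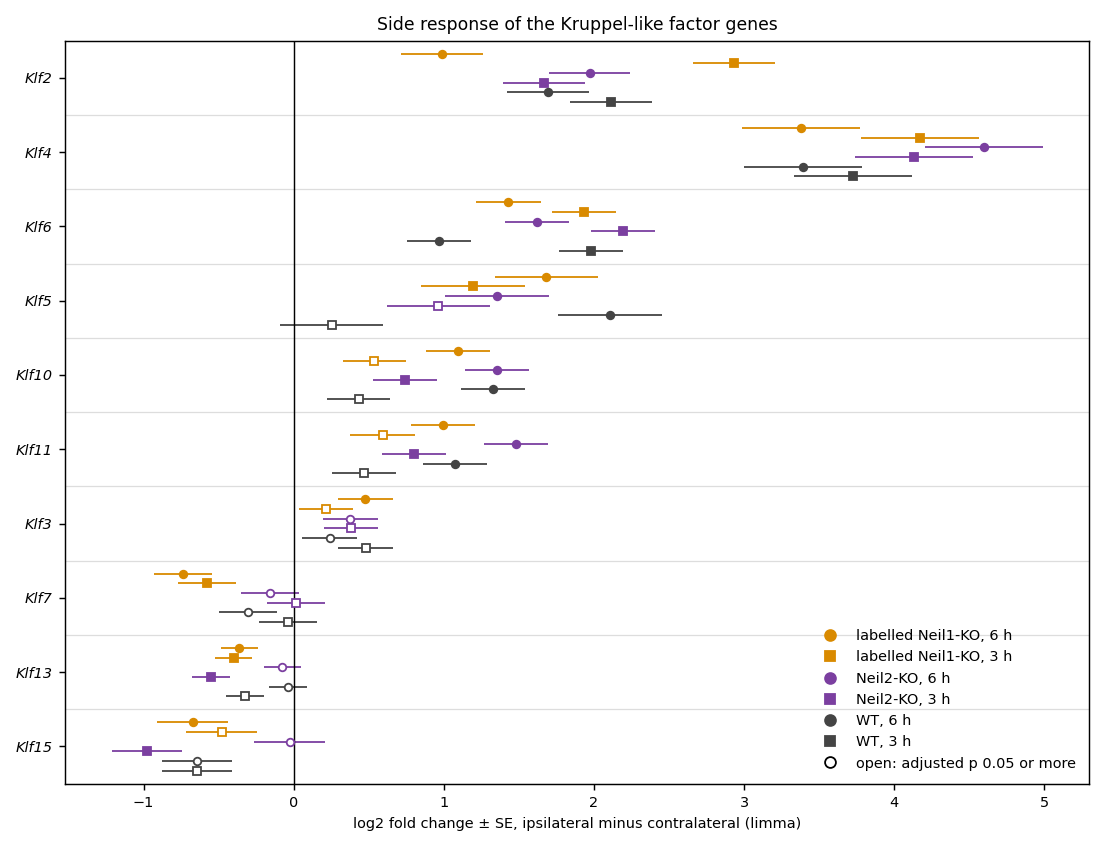
Log2 fold change (ipsilateral minus contralateral) of each gene in the 6 comparisons of the sides, with SE bars from limma and open symbols at an adjusted p of 0.05 or more. Klf4 lies between 3.38 and 4.60, Klf2 and Klf6 between 0.97 and 2.94, and Klf7, Klf13 and Klf15 mostly left of 0.

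Klf5, a factor of proliferating epithelial and vascular cells, was called higher at 6 h in all 3 genotypes and at 3 h in labelled Neil1-KO. Labelled Neil1-KO animals at 6 h had 344 and 319 ipsilaterally, against 104 and 101 contralaterally. Those of Neil2-KO at 6 h had 373 and 331, against 176 and 106. Those of WT at 6 h had 278 and 416, against 112 and 54.7. The sides did not overlap at 6 h, with log2 fold changes of 1.68, 1.35 and 2.11 in labelled Neil1-KO, Neil2-KO and WT (SE 0.34 each; limma adjusted p 0.000968, 0.00800 and 0.00044). At 3 h they overlapped across genotypes, at 184 to 349 ipsilaterally and 78.6 to 228 contralaterally. The log2 fold change at 3 h was 1.19 in labelled Neil1-KO (limma adjusted p = 0.0235), 0.96 in Neil2-KO (limma adjusted p = 0.0891) and 0.25 in WT (limma adjusted p = 0.752). With DESeq2 the 3 h value of Neil2-KO was called as well (1.00, DESeq2 adjusted p = 0.0258). The 3 h call of labelled Neil1-KO was lost without contralateral replicate 2 (0.89, limma adjusted p = 0.215) or ipsilateral replicate 2 (0.91, limma adjusted p = 0.1405). The 6 h call of Neil2-KO was lost without contralateral replicate 2 (0.99, limma adjusted p = 0.118) or ipsilateral replicate 1 (1.27, limma adjusted p = 0.0705). Without the high-Xist animals neither was called, the 3 h value of labelled Neil1-KO being 0.61 (limma adjusted p = 0.472) and the 6 h value of Neil2-KO 1.08 (limma adjusted p = 0.168).

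Klf10 and Klf11, TGF-beta-inducible repressors that recruit the corepressor Sin3a, were called higher in the same 4 comparisons, at 6 h in all 3 genotypes and at 3 h in Neil2-KO. Klf10 at 6 h had 1615 and 1585 ipsilaterally in labelled Neil1-KO, against 758 and 739 contralaterally. Neil2-KO had 2008 and 2134 at 6 h, against 795 and 825, and WT had 1960 and 1850, against 809.9 and 709.8. At 6 h every ipsilateral value of Klf10 was thus above every contralateral one. At 3 h its values were 1029 to 1880 ipsilaterally and 867.9 to 1268 contralaterally, and the sides overlapped. Klf11 ranged from 406 to 522 ipsilaterally and 138 to 255 contralaterally at 6 h, again without overlap. At 3 h it ranged from 379 to 514 ipsilaterally and 188 to 327 contralaterally. All 12 ipsilateral values of Klf11 thus lay above all 12 contralateral ones, and it was higher ipsilaterally in 12 of 12 animals. The share of all genes that separated in this way was not counted. The log2 fold changes at 6 h were 1.095, 1.35 and 1.33 for Klf10 (SE 0.21) and 0.99, 1.48 and 1.07 for Klf11 (SE 0.21) in labelled Neil1-KO, Neil2-KO and WT. Limma adjusted p-values of these 6 calls ran from 0.000111 to 0.00203. The 3 h values were 0.54, 0.74 and 0.43 for Klf10 and 0.59, 0.80 and 0.47 for Klf11. The 3 h calls of Neil2-KO (limma adjusted p = 0.0348 and 0.0252) were each lost without 3 of the 4 libraries, with adjusted p up to 0.416. Klf10 was 0.44 without ipsilateral replicate 2, and Klf11 was 0.42 without contralateral replicate 2. For Klf10 these were contralateral replicates 1 and 2 and ipsilateral replicate 2, and for Klf11 contralateral replicate 2 and ipsilateral replicates 1 and 2. DESeq2 also called both in labelled Neil1-KO at 3 h (DESeq2 adjusted p = 0.0327 for Klf10 and 0.0309 for Klf11). In that group the Klf10 value rested on replicate 2, a high-Xist animal, and was -0.02 without it. The 6 h call of Klf11 in labelled Neil1-KO was lost without the high-Xist animals (0.86, limma adjusted p = 0.0672).

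Klf3, a repressor that acts through CtBP proteins, was called in 1 comparison, labelled Neil1-KO at 6 h, where it had 1051 and 1204 normalized counts ipsilaterally, against 809.9 and 804.9 contralaterally. That log2 fold change was 0.48 ± 0.18 (SE), with a limma adjusted p of 0.0466, and with the animal as a block the limma adjusted p was 0.0771. The call was also lost without contralateral replicate 1, contralateral replicate 2 or ipsilateral replicate 2 (0.38 to 0.48). Without the high-Xist animals, all left out together, it was lost as well (0.37). Elsewhere its log2 fold change was 0.21 to 0.48, and the ipsilateral value was the higher one in 11 of 12 animals. The sides overlapped, at 754.5 to 1247 ipsilaterally and 578 to 939.8 contralaterally.

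Klf7, Klf13 and Klf15 were the members called lower on the injured side. Klf7, which favours axon growth in neurons, had 1976 and 1530 normalized counts ipsilaterally in labelled Neil1-KO at 6 h, against 2864 and 2928 contralaterally. At 3 h the same genotype had 1579 and 2472, against 2826 and 3069. Both of these differences were called (log2 -0.74 and -0.58, SE 0.19, limma adjusted p 0.00617 and 0.0488). In the other 4 comparisons its log2 fold change was -0.31 to 0.01. Labelled Neil1-KO at 6 h lost the call without ipsilateral replicate 2, the library that stood apart (-0.55). The call was also lost without the high-Xist animals, all left out together (-0.54). At 3 h it was lost without contralateral replicate 1, contralateral replicate 2 or ipsilateral replicate 1 (limma adjusted p 0.115 to 0.515). That value was -0.25 without ipsilateral replicate 1 and -0.90 without ipsilateral replicate 2.

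Klf13, known from T cells as a regulator of the chemokine gene Ccl5, was called lower in labelled Neil1-KO at both times and in Neil2-KO at 3 h. Labelled Neil1-KO had 2277 and 1698 ipsilaterally at 6 h, against 2458 and 2603 contralaterally. At 3 h it had 1921 and 2249, against 2737 and 2750. Neil2-KO at 3 h had 2515 and 2628, against 4163 and 3410. The sides did not overlap within any of these 3 comparisons. The log2 fold changes were -0.36 in labelled Neil1-KO at 6 h, -0.40 at 3 h, and -0.55 in Neil2-KO at 3 h (SE 0.12 each; limma adjusted p 0.0276, 0.0335 and 0.00997). The value of labelled Neil1-KO at 3 h had a limma adjusted p of 0.0556 with the animal as a block. Each of the 3 calls was lost without 3 of its 4 libraries, with limma adjusted p from 0.0639 to 0.422. These were contralateral replicates 1 and 2 and ipsilateral replicate 2 in labelled Neil1-KO at 6 h, contralateral replicates 1 and 2 and ipsilateral replicate 1 at 3 h, and contralateral replicate 1 and ipsilateral replicates 1 and 2 in Neil2-KO. Without the library that stood apart the 6 h value of labelled Neil1-KO was -0.15 (limma adjusted p = 0.422), against -0.57 without the other ipsilateral replicate, and that of WT at 3 h, -0.33, was called (limma adjusted p = 0.048).

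Klf15, a glucocorticoid-induced regulator of amino acid metabolism, was lower ipsilaterally in 11 of 12 animals but was called in 2 comparisons. Its ipsilateral counts were 161 to 314 and its contralateral counts 259 to 669, so the sides overlapped. Labelled Neil1-KO at 6 h had 161 and 226, against 325 and 287 (log2 fold change -0.67 ± 0.23, SE; limma adjusted p = 0.0301). Neil2-KO at 3 h had 235 and 288, against 669 and 393 (-0.98 ± 0.23; limma adjusted p = 0.0146). WT had -0.65 at 6 h (limma adjusted p = 0.0592, DESeq2 adjusted p = 0.044) and -0.64 at 3 h (limma adjusted p = 0.134). Each was as large as the called value of labelled Neil1-KO within the SE. Both calls were lost without 3 of their 4 libraries, with limma adjusted p from 0.063 to 0.222. The value of labelled Neil1-KO was -0.43 without ipsilateral replicate 1, and that of Neil2-KO was -0.59 without contralateral replicate 1. The libraries were contralateral replicates 1 and 2 and ipsilateral replicate 1 in labelled Neil1-KO, and contralateral replicate 1 and ipsilateral replicates 1 and 2 in Neil2-KO, each left out alone. Without the high-Xist animals labelled Neil1-KO at 6 h had -1.01 (limma adjusted p = 0.0527), and without the library that stood apart WT at 6 h was called (limma adjusted p = 0.0406).

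The mean absolute difference between the side responses of 2 genes over the 6 comparisons was used to describe likeness, as a description without a test. Among the members the closest pair was Klf10 and Klf11, at 0.105 on the log2 scale. Klf2 and Klf6 differed by 0.53, and Klf2 and Klf4 by 2.00. Among 12902 candidate genes the nearest to Klf4 were Socs3 (0.28), a feedback inhibitor of cytokine signalling, and Zfp36 (0.34), which destabilizes cytokine transcripts. Nearest to Klf2 were Jun (0.37), a subunit of AP-1, and Dusp10 (0.37), a MAP kinase phosphatase. Nearest to Klf6 were Hes1 (0.20), a Notch target, and Plekho2 (0.22). Klf5 lay nearest to Sp5 (0.14), a relative of the family, and to Lmna (0.19), a lamin gene. Klf10 lay nearest to Trim17 (0.07) and Niban2 (0.10), and Klf11 to Btaf1 (0.10) and Klf10. For members with small responses the nearest genes were closer in value. Klf3 had E2f6 and Oxnad1, Klf7 had Amer1 and Tigar, Klf13 had Stox2 and Galnt2 (0.05 to 0.06 each), and Klf15 had Zfp536 (0.15) and Lfng (0.16).

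Cell type markers moved with the side as well. In bulk tissue, fewer or more cells of a type and less or more RNA per cell cannot be told apart. The summed count of 10 endothelial markers was 6456 to 15546 ipsilaterally and 4579 to 5633 contralaterally, with no marker at 0. Its log2 side difference was 1.17, 0.77 and 0.53 in labelled Neil1-KO, Neil2-KO and WT at 6 h, and 0.68, 0.59 and 0.45 at 3 h. Klf4 differed by 3.38 to 4.60 in the same comparisons. Klf2 at 6 h in labelled Neil1-KO (0.99) was the one value among Klf2, Klf4 and Klf6 below the endothelial sum of its comparison. The 2 ipsilateral libraries there had endothelial sums of 8878 and 15546, and they include the library that stood apart. The highest endothelial sum of any other ipsilateral group was 9607, in Neil2-KO at 6 h. Of the 10 endothelial markers, 8 were called higher in labelled Neil1-KO at 6 h (17.6% of all genes) and 1 in WT at 3 h (2.49%), with the other comparisons between these counts. In WT at 6 h 3 were called higher and 1 lower (10.4% and 10.3% of all genes). The sum of 8 neuron markers was lower ipsilaterally by 0.29 to 0.84 on the log2 scale, and that of 8 microglia markers differed by -0.23 to 0.50. The sum of 6 hippocampal markers differed by -1.36 to -0.50. Pericyte and smooth muscle markers differed by 0.70 in labelled Neil1-KO at 6 h and by 0.00 to 0.17 in the other comparisons. In labelled Neil1-KO at 6 h the 2 ipsilateral libraries had sums of 8084 and 16472 for these markers. Their microglia sums were 3175 and 7520. The choroid plexus sum varied most between libraries (288 to 28206 ipsilaterally, 365.9 to 37334 contralaterally). Its side difference was 5.32 in labelled Neil1-KO, -2.75 in Neil2-KO and -5.74 in WT at 6 h, and -1.81, 0.93 and -3.03 at 3 h, with 1 of 8 markers called higher in labelled Neil1-KO and 4 called lower in WT at 6 h. The part of these cell types in the side differences of the members was not tested.

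**Figure D3:**
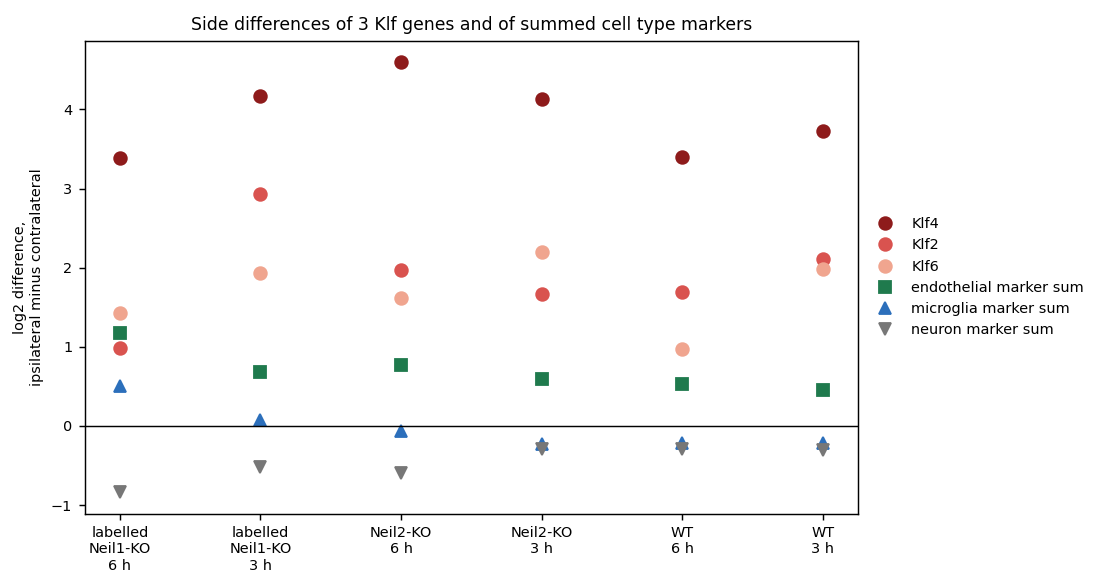
Log2 side difference (ipsilateral minus contralateral, mean of 2 libraries per side) of Klf4, Klf2 and Klf6 and of the summed endothelial, microglia and neuron markers in the 6 comparisons. The endothelial sum lies between 0.45 and 1.17, under Klf4 in all 6 and above Klf2 in labelled Neil1-KO at 6 h. In that comparison the 2 ipsilateral libraries had endothelial sums of 8878 and 15546.

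The second question was whether the members differed between 6 h and 3 h. On the ipsilateral side, averaged over the genotypes, Klf2, Klf4 and Klf6 were lower at 6 h, and the other 7 members did not pass (12.7% of all genes were called, 5.14% higher and 7.52% lower). Klf2 was 513 to 1175 at 6 h (median 600.5) and 860.3 to 1748 at 3 h (median 1131). Its ranges overlapped through 1 library, that of Neil2-KO replicate 1 at 6 h (1175). In Neil2-KO Klf2 averaged 953.9 ± 313 at 6 h and 974.9 ± 162 at 3 h (SD, n = 2 libraries each). The log2 fold change over the genotypes was -0.81 ± 0.16 (SE, n = 6 libraries per time; limma adjusted p = 0.0039). Klf6 was 2197 to 4015 at 6 h (median 2920) and 3772 to 5437 at 3 h (median 4829). It fell by 0.60 on the log2 scale (SE 0.12; limma adjusted p = 0.0050), and the calls of Klf2 and Klf6 held without each of the 12 libraries. Klf4 was 616 to 2259 at 6 h (median 1276) and 1625 to 2416 at 3 h (median 1922), a log2 fold change of -0.75 ± 0.23 (limma adjusted p = 0.038). In Neil2-KO it did not have that direction, averaging 1875 ± 542 at 6 h and 1791 ± 235 at 3 h (SD, n = 2 libraries each), and whether the time difference varied with genotype was not tested. Without any one of 7 of the 12 libraries the Klf4 call was lost (limma adjusted p 0.0725 to 0.117). These were all but WT 6 h replicate 1, replicate 2 of labelled Neil1-KO at either time, Neil2-KO 6 h replicate 1 and Neil2-KO 3 h replicate 2.

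Contralaterally 0 of 10 members were called between the times by limma (0.332% of all genes, 0.114% higher and 0.218% lower), while 5 (Klf4, Klf10, Klf11, Klf13 and Klf15) had an unadjusted p under 0.05. Those with the smallest p were Klf13, at 2451 to 2884 at 6 h and 2737 to 4163 at 3 h (log2 -0.32 ± 0.07, limma adjusted p = 0.0647), and Klf15, at 259 to 368 at 6 h and 313 to 669 at 3 h (-0.55 ± 0.14, limma adjusted p = 0.0909). DESeq2 called these 2 members lower and edgeR 0. Of all genes, DESeq2 called 268 here, against 61 by limma. Without the library that stood apart, which is not among those compared, limma called Klf13 (adjusted p = 0.0136).

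The side response itself (ipsilateral minus contralateral) differed between 6 h and 3 h for 2 members, where 1.90% of all genes were called (1.43% higher, 0.463% lower). That of Klf6 was smaller at 6 h, by -0.69 ± 0.17 on the log2 scale (SE, n = 6 libraries per side and time, limma adjusted p = 0.0486). That of Klf10 was larger at 6 h, by 0.69 ± 0.17 (limma adjusted p = 0.0487). Klf2 stood at -0.69 ± 0.22, Klf5 at 0.91 ± 0.28 and Klf11 at 0.56 ± 0.17, none of them called. The members thus included values of either sign, with Klf2 and Klf6 below 0 and Klf5, Klf10 and Klf11 above it. Both calls were close to the threshold, and the Klf10 call was lost with the animal as a block (limma adjusted p = 0.0604). EdgeR called 0 of the 10 and DESeq2 4 (Klf5, Klf6, Klf10 and Klf11). Of all genes, edgeR called 363 and DESeq2 798, against 348 by limma. Without the high-Xist animals neither was called (limma adjusted p = 0.123 for Klf6 and 0.0818 for Klf10). Leaving out one library ended the Klf6 call for 18 of the 24 libraries and the Klf10 call for 17 (limma adjusted p up to 0.125 and 0.1185).

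**Figure D4:**
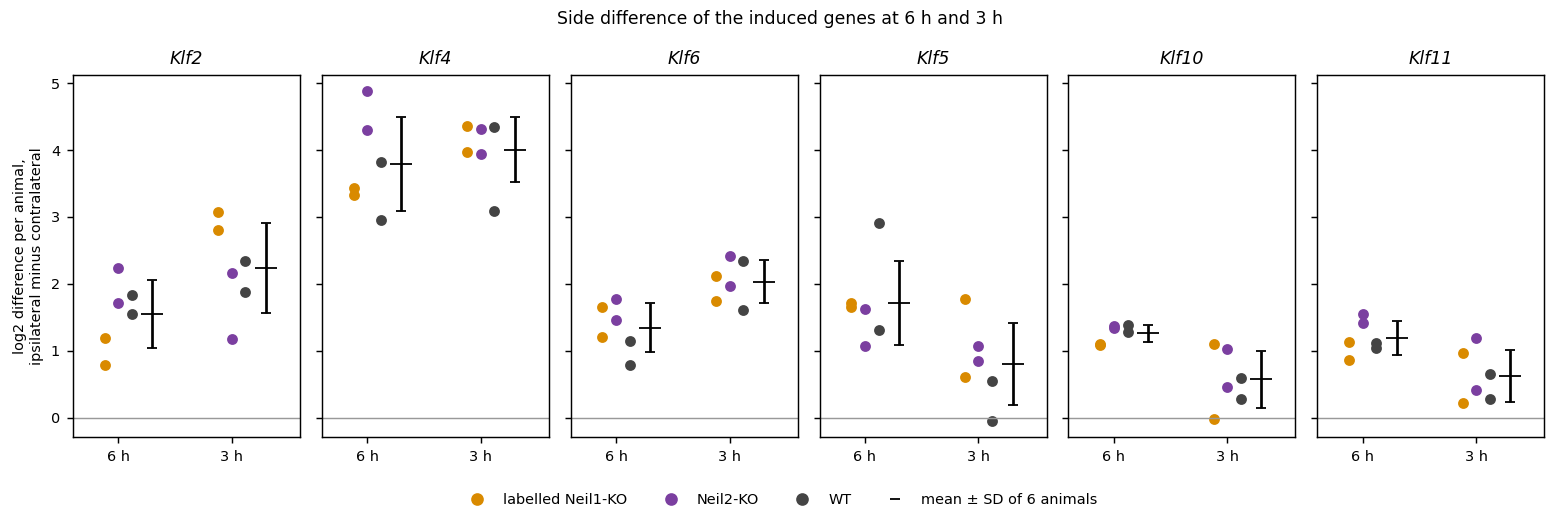
Log2 side difference per animal (ipsilateral minus contralateral, libraries with the same number) for 6 genes at 6 h and 3 h, with the mean ± SD of 6 animals per time. Klf6 spans 0.79 to 1.78 at 6 h and 1.61 to 2.42 at 3 h, with some overlap, and Klf10 is tightly grouped at 6 h and spread from -0.02 at 3 h.

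The third question was whether the knockouts differed from WT, taken over both times. Klf13 was the one member called, lower in labelled Neil1-KO than in WT on the ipsilateral side, where 9.31% of all genes were called (1.91% higher, 7.40% lower). The share of members called there, 10%, was thus close to that of all genes. It stood at 2036 ± 278 normalized counts in labelled Neil1-KO and 2681 ± 187 in WT (SD, n = 4 libraries each). The 4 labelled Neil1-KO libraries (1698, 1921, 2249 and 2277) all lay below the 4 WT libraries (2521 to 2930). How many other genes separated in this way was not counted. The log2 fold change was -0.40 ± 0.088 (SE), with a limma adjusted p of 0.0125. Contralaterally it was 2637 ± 137 in labelled Neil1-KO and 3073 ± 550.3 in WT, with overlapping ranges and a log2 fold change of -0.20 ± 0.088 (limma adjusted p = 0.68). The ipsilateral call was lost without labelled Neil1-KO 6 h replicate 2 (-0.30, limma adjusted p = 0.0575), labelled Neil1-KO 3 h replicate 1 (-0.35, limma adjusted p = 0.0741), WT 3 h replicate 1 (-0.38, limma adjusted p = 0.0770) or WT 6 h replicate 2 (-0.40, limma adjusted p = 0.0510). The neuron marker sum was also low in these labelled Neil1-KO libraries, at 62913 to 108491 ipsilaterally against 106250 to 119707 in WT, and its part in the Klf13 value was not tested.

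Limma called 0 of 10 members in Neil2-KO against WT on the ipsilateral side (0.109% of all genes, 0.0436% higher and 0.0653% lower), 0 in labelled Neil1-KO on the contralateral side (0.103%, 0.0436% higher and 0.0599% lower) and 0 in Neil2-KO on the contralateral side (0.0817%, 0.0327% higher and 0.0490% lower). At an unadjusted p under 0.05 there were 0, 1 (Klf13) and 1 (Klf11), and edgeR and DESeq2 each called 0 in all 3. Neither knockout differed from WT in the side response of any member by limma, nor of any other gene (0% of genes tested, where edgeR called 0 genes and DESeq2 5 and 1, with 2652 at an unadjusted p under 0.05 for labelled Neil1-KO and 976 for Neil2-KO). At that unadjusted threshold 1 member (Klf7, -0.48 ± 0.19, SE) passed for labelled Neil1-KO and 0 for Neil2-KO, and edgeR and DESeq2 each called 0 members. Klf4 and Klf6 in Neil2-KO had the values nearest to a larger side response than WT, at 0.81 ± 0.39 and 0.43 ± 0.21 (SE; limma adjusted p = 0.869 for both).

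**Figure D5:**
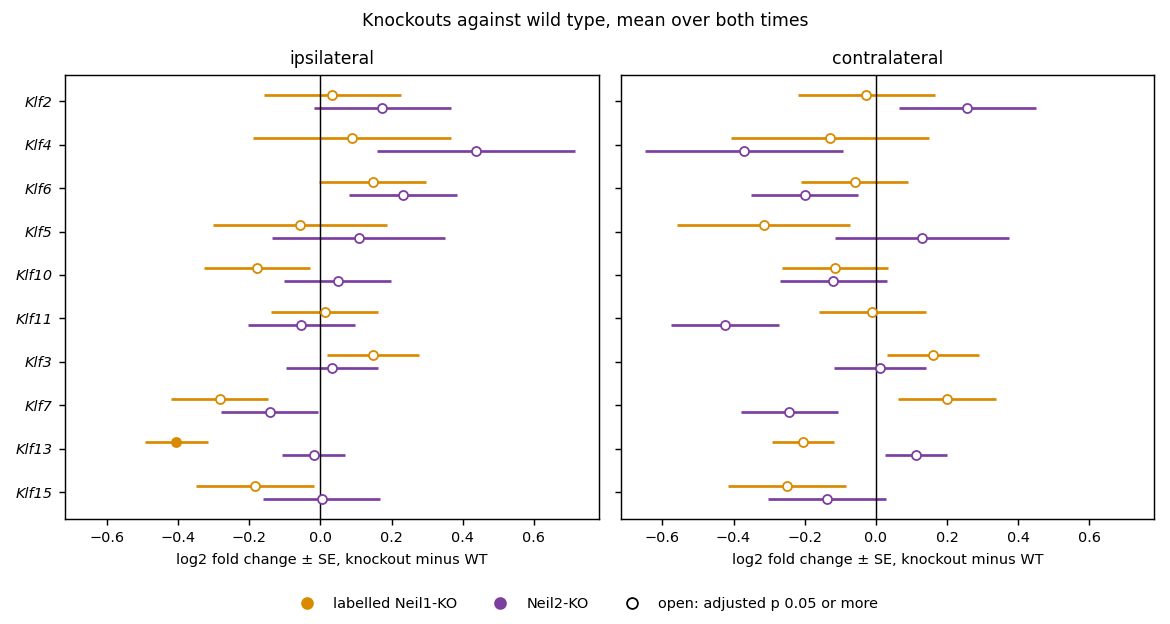
Log2 fold change of each gene in either knockout against WT, as the mean over 6 h and 3 h, on the ipsilateral and contralateral side, with SE bars from limma; a filled symbol is an adjusted p under 0.05. Klf13 on the ipsilateral side in labelled Neil1-KO (-0.40) is the filled one.

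Of 16 other Klf and Sp genes listed, 13 were tested, and between 0 and 3 were called higher and between 1 and 3 lower in the 6 comparisons of the sides (list median log2 fold change -0.13 to 0.20). In those comparisons 2.49% to 17.6% of all genes were called higher and 1.79% to 21.4% lower. Klf9, a glucocorticoid- and thyroid hormone-induced repressor, was called lower in all 6 (log2 -1.03 to -0.53; limma adjusted p at most 0.00128). Its counts were 2030 to 3306 ipsilaterally and 3467 to 6699 contralaterally. Klf9 was also lower in labelled Neil1-KO than in WT on both sides, at 2030 to 2287 against 2934 to 3306 ipsilaterally (-0.54 ± 0.07, SE; limma adjusted p = 0.00104) and 3467 to 4821 against 4286 to 6339 contralaterally (-0.42 ± 0.07; limma adjusted p = 0.0142). Sp5, a Wnt target, was called higher in 5 of the 6 (log2 0.58 to 2.04), with 47.4 to 114 normalized counts ipsilaterally and 17.3 to 39.4 contralaterally.

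Genes around the members were described from lists of their known regulators, partners and targets. Over all genes tested, 2.49% to 17.6% were called higher and 1.79% to 21.4% lower in the 6 comparisons of the sides. Of 11 TGF-beta signalling genes, which include inducers of Klf10 and Klf11, 4 to 7 were called higher in each side comparison and 0 or 1 lower (list median 0.07 to 0.58). The inhibitor Smad7 (log2 1.35 to 2.39) and the ligand genes Tgfb1 (0.72 to 1.72) and Tgfb3 (0.48 to 1.06) were higher in all 6. The ligand gene Tgfb2 went the other way, at -1.01 to -0.43, and was called lower in 1. Its counts were 536 to 1298 ipsilaterally and 1405 to 1924 contralaterally. Of 10 genes of the ERK5 and MEF2 route 0 to 2 were higher and 1 to 3 lower (list median -0.11 to 0.00). Mef2d was lower in 5 of the 6 (-0.83 to -0.25) and Mef2a in 4 (-0.69 to -0.24), while the endothelial receptor gene Heg1 was higher in 3 (-0.08 to 1.38). Mef2a (-0.30 ± 0.08, SE; limma adjusted p = 0.0228) and Mef2d (-0.42 ± 0.11; limma adjusted p = 0.0241) were also lower in labelled Neil1-KO than in WT ipsilaterally. KLF cofactor genes passed for at most 4 of 10 in any comparison of the sides (list median -0.07 to 0.19). That was in labelled Neil1-KO at 6 h, where 39.0% of all genes were called. The histone deacetylase gene Hdac1 was higher in 2 of the 6 (0.22 to 0.62). Ctbp1, a corepressor (-0.41 to 0.02), and the deacetylase gene Hdac3 (-0.36 to -0.01) were each lower in 2.

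Among 9 textbook targets of KLFs, 1 to 5 were called higher and 0 or 1 lower (list median 0.17 to 0.73). The share of all genes was 2.49% to 17.6% higher and 1.79% to 21.4% lower, here and for the glucocorticoid list below. The cyclin gene Ccnd1 was higher in all 6 side comparisons (log2 0.43 to 1.67), at 572 to 1245 ipsilaterally and 374 to 508 contralaterally. Its side response was larger at 6 h than at 3 h (0.88 ± 0.11, SE; limma adjusted p = 0.00127). Edn1, the endothelin-1 gene, which Klf2 represses in endothelium, was higher in 5 (1.58 to 2.81). Thbd, the thrombomodulin gene, which Klf2 and Klf4 induce there, was higher in 2 (0.84 to 2.33). Of 9 glucocorticoid targets and receptors, examined because Klf15 and Klf9 are among such targets, 1 to 5 were higher and 1 to 3 lower (list median -0.04 to 0.57). Fkbp5 was lower in all 6 (-1.10 to -0.76), Dusp1, also an immediate early gene, was higher in all 6 (1.72 to 3.53), and Pdk4 was higher in 5 (0.98 to 2.10).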

How the data were processed

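RNA of 24 hippocampal libraries was analysed from the authors' deposited table of 33084 lines, of which 10770 without a gene name (8.41% to 12.5% of reads) were left out. Its signal is a read count normalized by size factors. Per the submitters' processing notes, Trim Galore, HISAT2, SAMtools, featureCounts and DESeq2 were used with the build GRCm39 (mm39). The sources used here give no versions, settings or strand, so reads of overlapping antisense genes cannot be told apart. Deposited signals were whole multiples of 1 read (100% within 1e-06).

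Genes with at least 10 normalized counts in at least 2 libraries (82.3% of those named) were analysed as log2(count + 1) with limma-trend (limma 3.58.1, R 4.3.3), with 12 group means and 12 residual degrees of freedom. There were 15 comparisons, each two-sided with Benjamini-Hochberg adjustment over 18364 genes. The code was tested on simulated counts. Alternatives were a pseudocount of 5, no filter, edgeR 4.0.16, DESeq2 1.42.0, only the compared groups, the animal as a block, terms for high Xist (at least 1000) and Ttr, and leaving out each library. Leaving out the library that stood apart, or the high-Xist animals, was chosen after seeing the data.

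Both sides came from 2 replicates of each genotype and time, per the series' design text, so same-numbered sides were taken as 1 animal, a reading that the labels leave unstated. The deviations of such pairs correlated across genes at r = 0.155 and 0.271 in labelled Neil1-KO (6 h, 3 h), 0.035 and 0.0537 in Neil2-KO and -0.0033 and -0.0058 in WT. P-values measure the spread between libraries of the same group. Except with the animal as a block, both sides of an animal were treated as independent. The members, lists and likeness rule (the 2 genes nearest to each member, of mean at least 50) were chosen with earlier results of these data known. Up to 3 genes were to be named per list by adjusted p. Heg1, Hdac1, Hdac3, Ctbp1, Thbd and Pdk4 were named for their counts of calls, after their values were seen. Tgfb2 and Tgfb3 were also named after their values were seen, to cover the other TGF-beta ligand genes. One gene of the TGF-beta list is not reported here by name.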

Additional observations from a re-analysis of the deposited data

Results flagged for a closer look

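The difference between side responses at 6 h and 3 h passed the test for 2 members. Klf6 had a smaller side response at 6 h than at 3 h, with a difference of -0.69 on the log2 scale. Its side difference was lower at 6 h than at 3 h in each of the 3 genotypes, and it was above 0 in 12 of 12 animals. Klf10 had a larger side response at 6 h than at 3 h, with a difference of 0.69. At 6 h all 6 animals had a Klf10 difference above 0, and at 3 h 1 of 6 did not.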

How the results depend on the processing

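The calls of Klf4 and Klf6 between the sides held in all 6 comparisons under every alternative run, and those of Klf2 in all but labelled Neil1-KO at 6 h, where the call was also lost with Ttr as a covariate. Beside the main value of every member in the side comparisons and those named elsewhere, 676 of the values under other alternatives kept direction and call, 43 lost the call, 17 gained it and 4 reversed. Of those without one library, 377 kept both, 80 lost the call, 4 gained it and 7 reversed. In WT at 3 h 6 members were called when the fit held only the compared groups (1946 of all genes), against 3 (787). In labelled Neil1-KO at 6 h fewer than 10 members were called without the library that stood apart or without the high-Xist animals. Fewer of all genes were called in both of these fits too. For labelled Neil1-KO against WT ipsilaterally 0 were called with only the compared groups (4 of all genes) or with Ttr as a covariate (140), against 1 (1710). The call was also lost without the library that stood apart, where fewer of all genes were called. Contralaterally 2 were called between the times by DESeq2 (268 of all genes) and 2 with only the compared groups (228), against 0 (61). Klf13 was called without the library that stood apart, where more of all genes were called. For the side response between the times 0 were called with no filter (333 of all genes), with edgeR (363) and with a term for high Xist (320). With the animal as a block 1 was called (370), with Ttr 1 (416) and with DESeq2 4 (798), against 2 (348). Without the high-Xist animals no member was called for this side response, and fewer of all genes were. The block changed no other count or call than those of Klf10 there, Klf13 in labelled Neil1-KO at 3 h and Klf3 in labelled Neil1-KO at 6 h. Without one library, the counts were 3 to 5 (labelled Neil1-KO, 3 h), 3 to 5 (Neil2-KO, 3 h), 6 to 9 (labelled Neil1-KO, 6 h), 0 to 3 (labelled Neil1-KO against WT, ipsilateral), 0 to 1 (between times, contralateral) and 0 to 3 (side response between times). Reversals were in uncalled values: Klf10 in labelled Neil1-KO at 3 h (-0.025 without high-Xist animals, against 0.54) and Klf15 in Neil2-KO at 6 h (0.0096 with edgeR, 0.050 with Ttr and 0.17 without high-Xist animals, against -0.03). Without one library, Klf7 ranged from -0.23 to 0.26 in Neil2-KO and -0.28 to 0.20 in WT at 3 h, Klf15 from -0.20 to 0.14 in Neil2-KO at 6 h, and Klf3 from -0.12 to 0.60 and Klf13 from -0.13 to 0.05 in WT at 6 h. For changes in call the cause was not tested. Numbers of all genes called without each library in turn are not given here. With 2 animals a group, the library left alone was assumed to vary like the others. TMM scaling moved the median of all genes by under 0.1 (log2). The lowest member had 44 reads in a library.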
